A study of Mus musculus with 79 samples.

Results

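Schwann cells, the glia of peripheral nerve, change state after a nerve is cut, and this change is run by a small set of transcription factors. The measurements described here concern 10 genes of that set, out of 23361 genes in the deposited tables. They were taken by symbol, as 4 repair factors (Jun, Sox2, Olig1 and Runx2), 3 myelin factors (Egr2, Pou3f1 and Sox10), and Zeb2, Tead1 and Nab2. All 10 symbols were found in each table.

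In an intact nerve the myelin programme is driven by EGR2, also called KROX20, together with SOX10, which marks the whole Schwann cell lineage, and POU3F1 (OCT6), which acts as cells begin to myelinate. NAB2 is a cofactor of EGR proteins, ZEB2 is a repressor needed for Schwann cells to differentiate and remyelinate, and TEAD1 is the DNA-binding partner of YAP and TAZ. When axons are lost, myelin genes are shut down and a repair programme is switched on in which JUN, a subunit of the AP-1 complex, is the central factor. SOX2 holds cells in an immature state, and OLIG1 and RUNX2 are among the factors that appear in denervated Schwann cells.

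The mice expressed enhanced GFP from a human S100β promoter, which marks Schwann cells, and were of both sexes. In all of them a freshly cut common peroneal nerve branch was joined to the tibial stump through a silicone conduit. In the immediate group the tibial branch was cut and joined at once, and in the delayed group it had been cut and tied to muscle 8 weeks before. For the immediate group the paper describes a sham operation 8 weeks earlier, which exposed the sciatic trunk and closed the wound again. At day 5 and day 14 the tissue bridge of each animal was digested and sorted, without pooling, into macrophages (positive for F4/80, CD14, CD16/32 and CD11b) and Schwann cells (GFP-positive and negative for those and other lineage markers). The distal stump was taken at day 5 only. Its samples carry the label distal stump as cell type, while their tissue label names the bridge. There were 79 libraries from 32 animals. The stump had 9 delayed and 7 immediate libraries, macrophages 9 and 8 at day 5 and 7 and 8 at day 14, and Schwann cells 9 and 7 at day 5 and 7 and 8 at day 14. The comparison of delayed with immediate repair asks what a long denervation changes in the response to repair.

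Total estimated counts per library ran from 3898778 to 9212710 in the stump, from 14928748 to 28499405 in macrophages and from 11614940 to 30796825 in Schwann cells. Levels are given as CPM, which are counts scaled to a common library total after TMM normalization, and 3 counts, taken as the floor of detection, correspond to 0.341 to 0.743 CPM in a stump library, 0.112 to 0.212 CPM in a macrophage library and 0.0866 to 0.193 CPM in a Schwann cell library. These floors cover counting error only. Levels of the stump and of sorted cells come from different library kits and were not compared by a test. In the sorted Schwann cell libraries markers of other cells were more abundant than those of Schwann cells, so values below are those of libraries labelled Schwann cell and not of Schwann cells alone. S100b, whose promoter drives the sorting GFP, had a median of 5.35 CPM over the 31 libraries and was at 0 in 1 of them. The summed level of 10 dendritic cell markers, which include Cd74, Ccr7 and Flt3, ran from 12826 to 42157 CPM in the same libraries, and that of 9 macrophage markers from 297 to 10281 CPM. The summed level of 8 Schwann cell markers, none of them among the 10 factors, ran from 31.9 to 846 CPM. In the 32 macrophage libraries it ran from 2.99 to 19.7 CPM. The immediate day 14 Schwann cell library of replicate 3 stood apart with 6727 CPM of neutrophil markers, and the delayed stump library of replicate 5 with 8443 CPM of muscle markers.

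The genes lie on 8 chromosomes of the mouse genome (GENCODE annotation of GRCm38, the build of the deposited counts under its other name, mm10). Jun lies at chr4:95049034-95052222 on the minus strand, Sox2 at chr3:34650405-34652461 on the plus strand, Olig1 at chr16:91269772-91271933 on the plus strand and Runx2 at chr17:44495987-44814797 on the minus strand. Egr2 lies at chr10:67535475-67542188 on the plus strand, Pou3f1 at chr4:124656807-124660655 on the plus strand and Sox10 at chr15:79154908-79165240 on the minus strand. Zeb2 lies at chr2:44983632-45117395 on the minus strand, Tead1 at chr7:112679318-112906807 on the plus strand and Nab2 at chr10:127660918-127668568 on the minus strand. Jun, Sox2, Olig1 and Pou3f1 each have a single exon. Nab2 shares 35.7% of its exon bases with the antisense gene Gm16229, the largest overlap of the 10, and the kit used for sorted cells does not mark the strand, so in those libraries reads of the pair cannot be told apart. The next largest overlaps were 8.57% of Pou3f1 with Gm2164, 7.28% of Jun with Junos and 7.26% of Olig1 with Gm15966.

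RefSeq promoter windows of 300 bases (GRCm38.p6), from 250 bases before to 50 bases after an annotated start, were at hand for 6 of the 10 genes. They were searched on both strands for exact words of the families to which these factors belong. The words were TGACTCA or TGAGTCA for AP-1, AACAAT or ACAAAG for SOX factors, GCGTGGGCG or GCGGGGGCG for EGR factors, GGAATG for TEAD factors, CACCTG for the ZEB2 E-box, ATTTGCAT for POU factors and TGTGGT for RUNX factors. Of all 32851 windows of this length, 5.2% held an AP-1 word, 27% a SOX word, 3.47% an EGR word, 14.7% a TEAD word, 20.2% the E-box, 1.74% the POU word and 16.8% the RUNX word. The windows of Sox2, Runx2 and Zeb2, all lower in the stump after delayed repair, are shown because each holds a word of its own or of another member's family, printed in capitals, 5′ to 3′ on the strand of the gene.
Sox2 promoter, chr3:34649745-34650044, plus strand: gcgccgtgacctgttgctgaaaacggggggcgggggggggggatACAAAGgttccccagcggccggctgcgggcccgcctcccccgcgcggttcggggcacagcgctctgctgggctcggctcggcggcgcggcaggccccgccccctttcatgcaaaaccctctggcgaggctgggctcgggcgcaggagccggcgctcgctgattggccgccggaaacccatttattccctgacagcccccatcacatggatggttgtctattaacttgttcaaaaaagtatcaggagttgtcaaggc
Runx2 promoter, chr17:44814578-44814877, minus strand: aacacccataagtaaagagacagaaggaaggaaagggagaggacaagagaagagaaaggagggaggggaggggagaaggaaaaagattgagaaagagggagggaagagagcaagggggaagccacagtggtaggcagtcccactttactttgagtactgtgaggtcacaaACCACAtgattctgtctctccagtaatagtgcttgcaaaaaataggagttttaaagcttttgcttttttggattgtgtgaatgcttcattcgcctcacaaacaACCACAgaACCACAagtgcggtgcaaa
Zeb2 promoter, chr2:45110228-45110527, minus strand: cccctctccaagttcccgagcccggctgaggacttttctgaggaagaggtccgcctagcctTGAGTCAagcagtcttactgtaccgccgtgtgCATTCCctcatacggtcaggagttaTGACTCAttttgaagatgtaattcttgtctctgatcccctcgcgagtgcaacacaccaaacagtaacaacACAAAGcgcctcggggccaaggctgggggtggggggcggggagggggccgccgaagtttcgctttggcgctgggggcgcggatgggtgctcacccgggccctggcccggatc
The capitals mark 1 SOX word in the Sox2 window, 3 RUNX words in the Runx2 window, and 2 AP-1 words, 1 SOX word and 1 TEAD word in this Zeb2 window, which is 1 of 4 listed for that gene. The marked words did not overlap each other. The windows listed for Jun and Nab2 held none of these words. Of the 5 windows listed for Egr2, 1 held a TEAD word and 3 overlapping ones held the same POU word at 1 site. RefSeq and GENCODE starts differ for some genes, so that the Sox2 window ends upstream of the GENCODE start given above. A word is a match of letters and was not tested for binding.

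At day 5 in the distal stump, 7 of the 10 factors were lower after delayed than after immediate repair and 0 were higher (edgeR's quasi-likelihood test, Benjamini-Hochberg adjusted over all genes tested). In order of size these were Pou3f1, Sox2, Sox10, Runx2, Jun, Tead1 and Zeb2, so that both repair and myelin factors were among them. Pou3f1 passed the count filter only through the immediate libraries, where it is high. Its call and the counts that include it are therefore a description. Olig1, Egr2 and Nab2 did not pass. Of all 12229 genes tested, 26.2% passed, 12.7% as higher and 13.5% as lower after delayed repair. Jun, Sox2, Pou3f1 and Sox10 did not overlap between the groups, as was so for 5.06% of the genes tested. In bulk tissue, fewer cells of a type and less RNA per cell cannot be told apart.

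**Figure D1:**
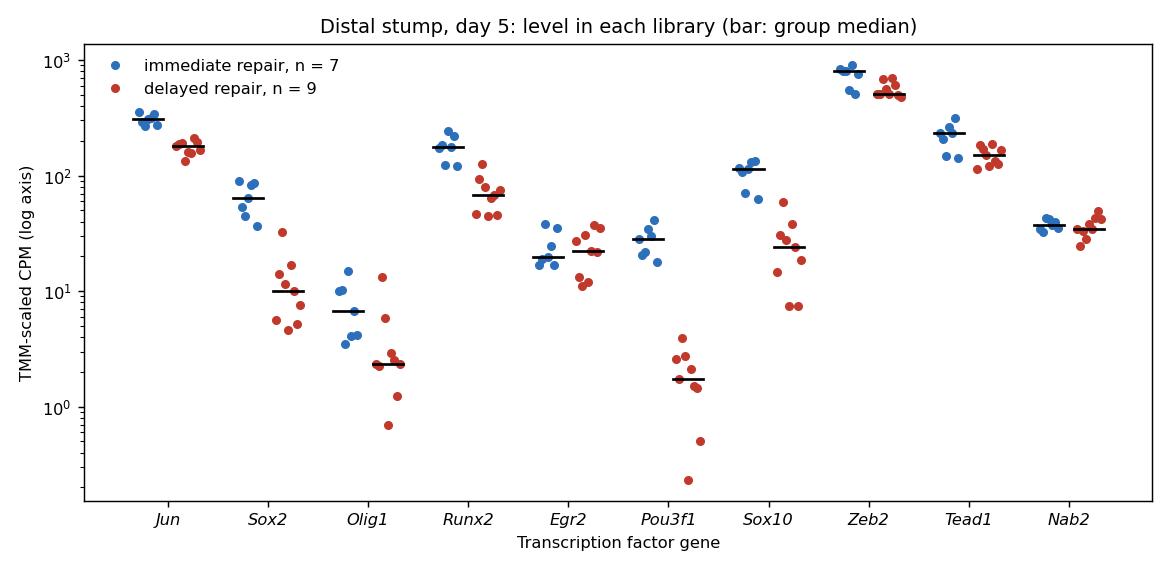
Levels of the 10 factors in each distal stump library at day 5, in TMM-scaled CPM on a log axis, with immediate repair (7 libraries) in blue and delayed repair (9 libraries) in red and a bar at each group's median. Pou3f1, with 0.232 to 3.92 CPM after delayed and 18.0 to 41.3 CPM after immediate repair, shows the widest gap, while the points of Egr2 and Nab2 lie over the same range in both groups.

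Among the repair factors, Jun had 135 to 209.7 CPM after delayed repair (median 181, n = 9) and 267 to 357 CPM after immediate repair (median 312, n = 7). Every delayed library lay below every immediate one, within narrow ranges in both groups. Jun fell by 0.76 (SE 0.10) on the log2 scale, a 1.70-fold difference (adjusted p = 3.15e-05). Sox2 had 4.64 to 32.3 CPM (median 10.1) after delayed and 37.0 to 89.1 CPM (median 63.7) after immediate repair, again without overlap. The highest delayed library came close to the lowest immediate one. Sox2 fell by 2.42 (SE 0.35) on the log2 scale, or 5.34-fold (adjusted p = 0.000128).

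Runx2, best known from bone formation, had 44.5 to 127 CPM (median 68.4) after delayed and 122 to 242 CPM (median 178) after immediate repair. The highest delayed library reached just into the immediate range. Runx2 fell by 1.27 (SE 0.22) on the log2 scale (adjusted p = 0.000498), and all 9 delayed libraries lay below the immediate mean. Olig1, otherwise a factor of oligodendrocytes, was the lowest of the repair factors, at 0.696 to 13.3 CPM (median 2.35) after delayed and 3.48 to 14.8 CPM (median 6.72) after immediate repair. Its groups overlapped over most of their range, and its log2 difference of -0.99 (SE 0.49) did not pass (adjusted p = 0.145).

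Among the myelin factors, Pou3f1 showed the largest difference of the 10. It had 0.232 to 3.92 CPM (median 1.73) after delayed and 18.0 to 41.3 CPM (median 28.2) after immediate repair. The groups were far apart, and the lowest delayed library held 2 counts, under the floor of 3. Pou3f1 fell by 3.87 (SE 0.34) on the log2 scale, or 14.6-fold (adjusted p = 8.40e-07). It passed the count filter only through the immediate libraries, where it is high, so that this fold and p are a description. Its call was the same with no filter. Sox10 had 7.42 to 58.9 CPM (median 23.9) after delayed and 62.2 to 135 CPM (median 114) after immediate repair, with no overlap. It fell by 2.02 (SE 0.35) on the log2 scale, or 4.06-fold (adjusted p = 0.000563). Egr2, by contrast, had 11.1 to 37.2 CPM (median 22.4) after delayed and 16.7 to 38.2 CPM (median 19.9) after immediate repair. Its groups covered the same range, with a log2 difference of -0.02 (SE 0.27, adjusted p = 0.967).

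Zeb2 had 481 to 699 CPM (median 512) after delayed and 512 to 911 CPM (median 799.9) after immediate repair, with overlapping groups. It fell by 0.35 (SE 0.12) on the log2 scale (adjusted p = 0.0426). This call was lost in 10 of the 16 fits that left out 1 library (delayed replicates 2, 3, 4, 5, 6 and 8, immediate replicates 2, 6, 7 and 8), with an adjusted p of up to 0.0877. Tead1 had 115 to 187 CPM (median 152) after delayed and 143 to 312 CPM (median 232) after immediate repair, and its groups overlapped too. It fell by 0.51 (SE 0.16) on the log2 scale (adjusted p = 0.0280), and the call was lost without immediate replicate 1, 2 or 3 (adjusted p of up to 0.0635). Nab2 had 24.8 to 49.1 CPM (median 34.6) after delayed and 32.5 to 43.2 CPM (median 37.3) after immediate repair. Its log2 difference was -0.01 (SE 0.12, adjusted p = 0.944).

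Markers of the Schwann cell lineage moved with these differences. The summed level of the 8 Schwann cell markers was 76.4 to 553 CPM (median 192) in delayed and 926 to 2189 CPM (median 1432) in immediate stumps, without overlap, and S100b alone was 1.73 to 16.7 CPM against 103 to 371 CPM. The summed level of 5 axon and neuron markers was 12.8 to 108 CPM against 246 to 646 CPM, and that of the 9 macrophage markers 3331 to 5994 CPM against 1393 to 5834 CPM. Higher without overlap in delayed stumps were the sums of 5 endothelial markers, at 838 to 1193 CPM against 552 to 786 CPM, and of 6 plasmacytoid dendritic cell markers, at 523 to 606 CPM against 307 to 509 CPM. When the mean log2 level of the Schwann cell markers was added to the fit as a covariate, 0 of the 10 factors and 16 of all genes passed. In that fit Jun was at -0.63 (adjusted p = 0.368) and Pou3f1 at -1.78 (adjusted p = 0.368) on the log2 scale. The repair group and the marker score, which do not overlap, cannot be told apart in such a fit.

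To set the factors against the lineage marker among them, each was also expressed in every stump library as a log2 ratio to Sox10 (levels with 1 CPM added). On this scale Tead1 was higher in all delayed libraries, at 1.50 to 3.90, than in all immediate ones, at 0.82 to 1.21. Its mean difference, delayed minus immediate, was 1.71. Sox10 itself fell by 2.02 on the log2 scale without overlap, so a gene that did not change lies higher on this scale after delayed repair. How many of all genes separate the groups on it was not counted. The other 8 ratios overlapped between the groups. Jun was at 1.69 to 4.54 after delayed and 1.25 to 2.11 after immediate repair, a mean difference of 1.42. Egr2 was at -2.31 to 1.44 and -2.93 to -0.79, and Nab2 at -0.82 to 2.57 and -1.79 to -0.69, with mean differences of 2.13 and 2.15. The ratio of Sox2 to Sox10 had a mean difference of -0.29, at -1.24 to -0.45 after delayed and -0.99 to -0.39 after immediate repair. Pou3f1 was the only other factor with a lower mean ratio after delayed repair, at -3.70 to -1.79 against -2.31 to -1.64, a mean difference of -1.17. These ratios share Sox10 as denominator and are a description.

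**Figure D2:**
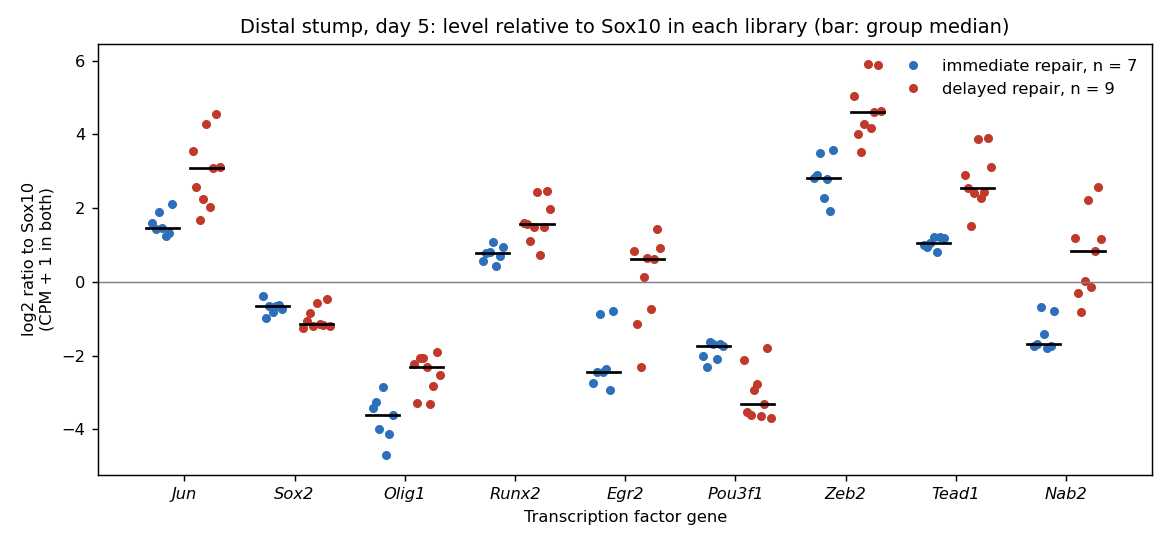
Log2 ratio of each factor to Sox10 in every distal stump library at day 5, with 1 CPM added to both, for immediate repair (blue, 7 libraries) and delayed repair (red, 9 libraries) and a bar at each median. Tead1 is the only factor whose groups do not overlap, at 0.82 to 1.21 and 1.50 to 3.90, while Sox2 and Pou3f1 have lower medians after delayed repair. Sox10 itself was lower after delayed repair, which raises the ratio of a factor that did not change.

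The balance of the classes was summarised in each library as the mean log2 level of the 3 myelin factors minus that of the 4 repair factors. In the stump it was -1.29 ± 0.35 (SD, n = 9) after delayed and -0.80 ± 0.33 (SD, n = 7) after immediate repair. The ranges, -1.94 to -0.84 and -1.17 to -0.35, overlapped. The difference of -0.49 exceeds the SD of each group. Of the myelin factors Pou3f1 was at -3.87, Sox10 at -2.02 and Egr2 at -0.02 on the log2 scale, so the class did not move as a whole. The balance was not computed without Pou3f1.

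Lists of genes that work with these factors were read beside them in the stump, where 26.2% of all genes passed, 12.7% as higher and 13.5% as lower, with a median log2 difference of 0.02. Of 14 tested myelin genes under EGR2 and SOX10, 12 fell and 0 rose, with a median of -2.12. Mbp, a structural protein of myelin, fell by 2.05 (SE 0.15), Gjb1, the connexin of Schwann cell myelin, by 6.13 (SE 0.49) and Cnp, a myelin-associated enzyme, by 1.89 (SE 0.16) on the log2 scale. Of 12 tested repair Schwann cell genes, 6 fell and 1 rose, with a median of -0.67. Shh fell by 5.90 (SE 0.57), Ngfr, the low-affinity neurotrophin receptor, by 2.90 (SE 0.39) and Gdnf, a trophic factor for motor neurons, by 2.59 (SE 0.39).

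Of 16 tested co-regulators of the myelin programme, 6 fell and 2 rose, with a median of -0.14. Gpr126, a receptor needed to start myelination, fell by 1.23 (SE 0.16) and Sox8, a close relative of Sox10, by 1.38 (SE 0.27), while Yy1 rose by 0.30 (SE 0.07). Of 8 tested AP-1 partners of Jun only Atf3, an injury-induced factor, passed, and it fell by 1.86 (SE 0.20). Of 9 tested negative regulators of myelination only Snai2 passed, and it rose by 0.79 (SE 0.21). Of 8 tested YAP and TEAD targets 2 fell and 2 rose, with a median of 0.27. Ctgf rose by 0.75 (SE 0.17), while Amotl1 fell by 0.42 (SE 0.10) and Axl by 0.48 (SE 0.13). Of 13 immediate early genes, whose levels rise quickly when tissue is handled, 1 fell (Atf3 again) and 0 rose. The lists with a single call lie under the share of 26.2% over all genes.

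In the sorted cells the factors fell into those detected in both cell types and those found almost only in Schwann cell libraries. Olig1 had 0 counts in all 32 macrophage libraries. Sox2 was at 0 in 29 of the 32 and reached at most 0.376 CPM, Sox10 was at 0 in 28 and reached at most 1.82 CPM, and Tead1 was at 0 in 23 and reached at most 0.837 CPM. In the 31 Schwann cell libraries Sox10 had a median of 61.1 CPM and was at 0 only in delayed day 5 replicate 4, Sox2 had a median of 13.3 CPM and was at 0 in 4, and Tead1 had a median of 3.497 CPM and was at 0 in 1. Olig1 was at 0 in 17 of the 31 and reached 18.8 CPM in an immediate library of day 14.

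**Figure D3:**
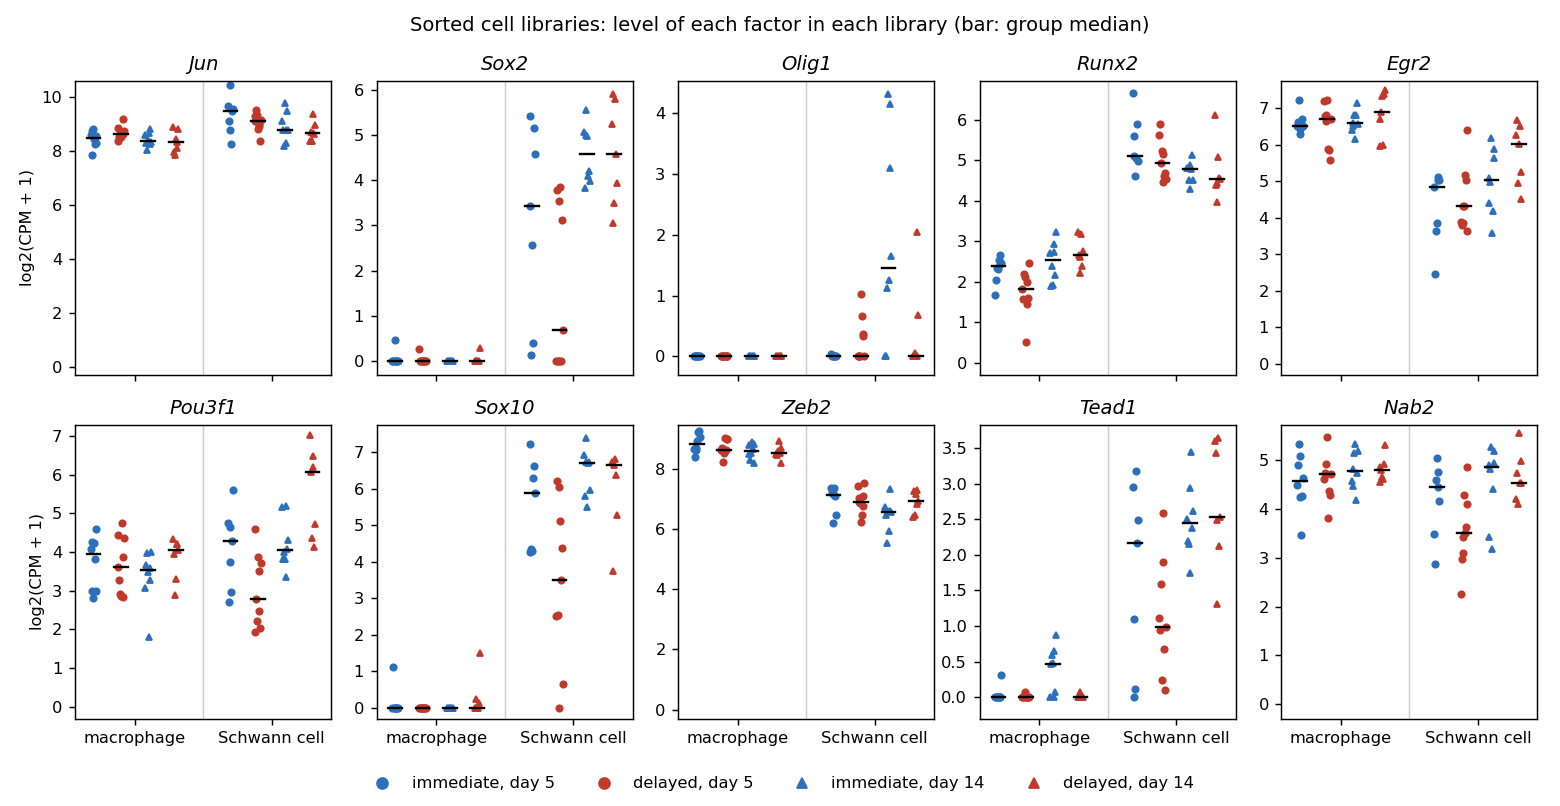
Levels of the 10 factors in each library of sorted macrophages and Schwann cells by repair group and day, as log2(CPM + 1) from TMM-scaled CPM (circles day 5, triangles day 14, blue immediate, red delayed), with a bar at each group's median. Jun, Egr2, Zeb2 and Nab2 are present in every library of both cell types, whereas Sox2, Olig1, Sox10 and Tead1 lie at or near 0 in macrophages.

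Tested between the cell types at day 5, over 16 Schwann cell and 17 macrophage libraries, 7 of 8 factors with enough counts (not Olig1 and Tead1) differed, with Jun, Sox2, Runx2 and Sox10 higher and Egr2, Zeb2 and Nab2 lower in Schwann cell libraries. The background was high, since 65.3% of 10087 genes passed, 35.6% as higher and 29.7% as lower. At day 14 (15 and 15 libraries) 8 of 9 differed, with Jun, Sox2, Runx2, Pou3f1, Sox10 and Tead1 higher and Egr2 and Zeb2 lower, against 64.7% of 10596 genes, 37.1% higher and 27.6% lower. Sox2 and Sox10 at both days, Runx2 at day 5 and Tead1 at day 14 passed the count filter only through the Schwann cell libraries, where they are high, so that their calls and the counts that include them are a description. Folds are not given for Sox2, Sox10 and Tead1, since most macrophage libraries held no count.

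Runx2 separated the cell types without overlap on both days. It had 21.2 to 99.9 CPM in Schwann cell and 0.421 to 5.33 CPM in macrophage libraries at day 5, and 14.7 to 69.2 CPM against 2.73 to 8.34 CPM at day 14. It was higher in Schwann cell libraries by 3.65 (SE 0.23) at day 5 and by 2.40 (SE 0.21, adjusted p = 1.18e-11) at day 14 on the log2 scale. Zeb2 separated them in the other direction, at 72.6 to 182 CPM against 298 to 617 CPM at day 5 and 45.2 to 159 CPM against 292 to 488 CPM at day 14. The log2 differences were -1.77 (SE 0.12) and -1.81 (SE 0.14), with adjusted p = 3.00e-14 and 9.54e-13. Groups without overlap were found for 14.9% of genes tested at day 5 and 16.4% at day 14. Which cells of the Schwann cell libraries, in which dendritic cell markers summed to 12826 to 42157 CPM, hold these transcripts was not tested.

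Jun overlapped between the cell types and was modestly higher in Schwann cell libraries, by 0.70 (SE 0.15, adjusted p = 0.000101) at day 5 and 0.51 (SE 0.15, adjusted p = 0.00315) at day 14. Egr2 was lower in Schwann cell libraries, with log2 differences of -1.96 (SE 0.27, adjusted p = 1.07e-07) and -1.20 (SE 0.25, adjusted p = 9.23e-05). Its macrophage level was 47.3 to 179.7 CPM over all 32 libraries and its level in Schwann cell libraries 4.46 to 101 CPM. The sorted cells came from digested tissue. At day 5 the sum of 15 immediate early and dissociation genes had medians of 11971 (delayed) and 11531 CPM (immediate) in Schwann cell libraries. In macrophage libraries the medians were 10148 and 10587 CPM. The part of tissue handling in the levels of Jun and Egr2 was not tested. Pou3f1 did not differ detectably at day 5 (log2 difference -0.01, SE 0.33, adjusted p = 0.975) and was higher in Schwann cell libraries at day 14 by 1.52 (SE 0.31, adjusted p = 6.77e-05). Nab2 was lower at day 5, at -0.65 (SE 0.24, adjusted p = 0.0183), a call lost when libraries were scaled by their totals only (-0.41, adjusted p = 0.177). At day 14 it was at -0.10 (SE 0.19, adjusted p = 0.657). Scaling by totals moved the median log2 difference of all genes from 0.05 to 0.31 at day 5 and from 0.11 to 0.49 at day 14, and the genes higher in Schwann cell libraries from 3590 of 6587 to 4500 of 6573 and from 3930 of 6853 to 5813 of 7556.

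Levels of different genes were compared per kilobase of exon. In the immediate Schwann cell libraries of day 14 the order of the medians was Jun at 136 CPM per kilobase, Sox10 at 34.1, Sox2 at 11.6, Nab2 at 9.53, Egr2 at 9.44, Zeb2 at 4.73, Pou3f1 at 4.03, Runx2 at 3.02, Olig1 at 0.814 and Tead1 at 0.327. After delayed repair at the same day Pou3f1 was the fourth of the 10 at 17.1 CPM per kilobase. In the immediate stump Jun led at 97.9 CPM per kilobase, followed by Zeb2 at 40.1, Sox10 at 37.2 and Sox2 at 30.9. In the delayed stump Pou3f1 was last at 0.451 CPM per kilobase.

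Within the Schwann cell libraries, delayed and immediate repair did not differ at the threshold for any factor on either day. At day 5, 0 of 8 factors tested passed with edgeR and 0 with DESeq2, against 0% of 9604 genes, and 1 (Pou3f1) had an unadjusted p under 0.05, as did 505 genes. DESeq2 called 14 of all genes. At day 14, 0 of 9 factors passed with either tool, against 0% of 10226 genes, and 1 (Pou3f1 again) had an unadjusted p under 0.05, as did 373 genes. DESeq2 called 3 genes. Olig1 was under the count filter on both days and Tead1 at day 5, and Olig1 was also left out by it in the comparisons of the cell types, of the days and of the interaction.

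At day 5 the median level was lower after delayed repair for each of the 8 factors tested, although the fitted difference of Egr2 was above 0. Pou3f1 had 2.79 to 23.1 CPM (median 5.86, n = 9) after delayed and 5.51 to 47.1 CPM (median 18.5, n = 7) after immediate repair, with a log2 difference of -1.19 (SE 0.53, adjusted p = 0.913). Sox10 had 0 to 73.6 CPM (median 10.2) and 18.4 to 150.1 CPM (median 57.6), a difference of -1.42 (SE 0.91, adjusted p = 0.921). Sox2 had 0 to 13.3 CPM (median 0.617) and 0.0914 to 41.7 CPM (median 9.74), a difference of -1.71 (SE 1.37, adjusted p = 0.936). All of these overlapped widely. Jun was at 327 to 729.5 CPM and 305 to 1406 CPM, and the log2 differences of Jun, Runx2 and Nab2 were -0.40 (SE 0.23), -0.51 (SE 0.31) and -0.65 (SE 0.41), each with an adjusted p of 0.921. The Schwann cell marker sum in the same libraries was 31.9 to 237 CPM (median 78.3) after delayed and 65.0 to 563 CPM (median 299) after immediate repair. The macrophage marker sum had a median of 2937 CPM after delayed and 849 CPM after immediate repair, and the fibroblast marker sum 436 CPM and 1088 CPM, and their part was not tested. With the Schwann cell marker score as a covariate, 0 factors passed and Pou3f1 was at -0.57 (SE 0.47) and Sox10 at -0.45 (SE 0.56), both nearer to 0 than without it, while Jun was at -0.46 (SE 0.27).

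At day 14 Pou3f1 lay the other way. It had 16.5 to 129 CPM (median 66.0, n = 7) after delayed and 9.22 to 35.6 CPM (median 15.5, n = 8) after immediate repair. The delayed libraries reached higher, but the lower ones lay within the immediate range. The log2 difference was 1.62 (SE 0.44), higher in 6 of 7 delayed libraries than the immediate mean, with an adjusted p of 0.998. Egr2 had 22.0 to 101 CPM (median 64.6) and 11.1 to 72.0 CPM (median 32.1), a difference of 0.71 (SE 0.41), and Zeb2 was at 0.39 (SE 0.23) and Jun at -0.23 (SE 0.24), all with an adjusted p of 0.998. The Schwann cell marker sum was 139 to 846 CPM (median 712) after delayed and 221 to 734 CPM (median 375) after immediate repair. With the marker score as a covariate, 0 factors passed and Pou3f1 was at 0.97 (SE 0.37) and Egr2 at 0.24 (SE 0.31).

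**Figure D4:**
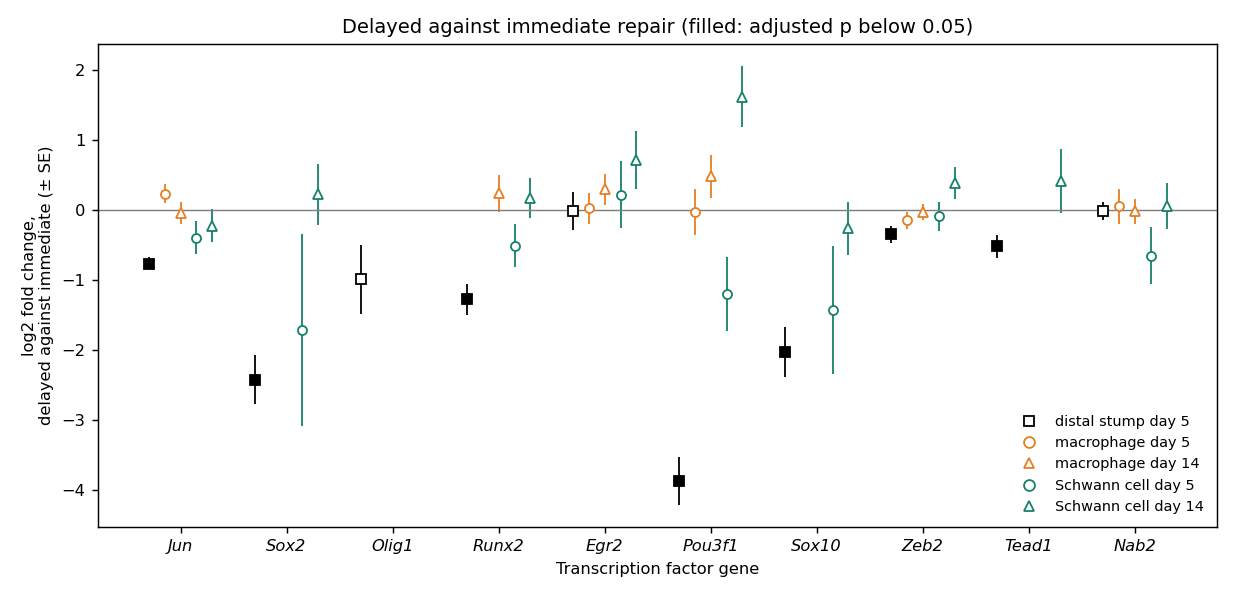
Log2 fold changes of delayed against immediate repair for each factor tested in the distal stump at day 5 (black) and in macrophage (orange) and Schwann cell (green) libraries at day 5 (circles) and day 14 (triangles), with bars of 1 standard error and filled symbols for an adjusted p under 0.05. The 7 filled symbols are all in the stump and below 0, and Pou3f1 is at -3.87 in the stump, -1.19 in the day 5 and 1.62 in the day 14 Schwann cell libraries.

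An interaction term tested for a change in the delay effect from day 5 to day 14. In Schwann cell libraries 0 of 9 factors passed with edgeR or DESeq2, against 0% of 10923 genes, and 1 factor and 545 genes had an unadjusted p under 0.05. DESeq2 called 8 genes. Pou3f1 had the largest interaction of the 9, at 2.82 (SE 0.71) on the log2 scale, with an adjusted p of 0.638 by edgeR and 0.0575 by DESeq2. In macrophages 0 of 6 factors passed with either tool, against 0.0223% of 8949 genes, and 1 had an unadjusted p under 0.05. The balance of myelin over repair factors in Schwann cell libraries was -0.35 ± 0.61 (SD, n = 9) after delayed and 0.19 ± 0.84 (SD, n = 7) after immediate repair at day 5, and 1.18 ± 0.83 (SD, n = 7) and 0.20 ± 0.61 (SD, n = 8) at day 14. The group ranges overlapped on both days, and the difference of 0.99 at day 14 exceeds the SD of each group. Of the myelin factors Pou3f1 was at 1.62, Egr2 at 0.71 and Sox10 at -0.26 that day, so the class did not move as a whole. The repair mean includes Olig1, which was under the count filter. Its mean was 0.541 CPM after delayed and 5.97 CPM after immediate repair, and the balance was not computed without it.

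From day 5 to day 14 after delayed repair, Pou3f1 rose in Schwann cell libraries and was the 1 factor of 9 tested that passed, where 8.09% of 9961 genes did. Its level went from 2.79 to 23.1 CPM at day 5 (n = 9) to 16.5 to 129 CPM at day 14 (n = 7). All 7 libraries of day 14 lay above the day 5 mean, although the ranges overlapped. Pou3f1 rose by 2.84 (SE 0.53, adjusted p = 0.00992). Nab2 was at 1.12 (SE 0.35, adjusted p = 0.0580), Tead1 at 2.21 (SE 0.70, adjusted p = 0.0577) and Egr2 at 1.27 (SE 0.44, adjusted p = 0.0805), none of which passed. Sox2 was at 2.61 (SE 1.16, adjusted p = 0.160) and Sox10 at 1.81 (SE 0.88, adjusted p = 0.195). In the same libraries the Schwann cell marker sum was 31.9 to 237 CPM at day 5 and 139 to 846 CPM at day 14, that of 6 fibroblast markers 2.57 to 1722 CPM and 1074 to 7526 CPM, and that of 6 plasmacytoid dendritic cell markers 1846 to 2786 CPM and 644 to 1936 CPM. Their part in the rise was not tested. Of 7 other settings Nab2 passed in 5 and Egr2 in 3. Tead1 barely reached the count filter here, and mostly through the day 14 libraries, where it is high, so that its values and the counts that include it are a description. The count was 4 of 9, Tead1 among them, with DESeq2, which called 1513 genes, and 2 or 3 without delayed day 5 replicate 5 or 9 or delayed day 14 replicate 3.

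After immediate repair, 0 of 9 factors passed between the days with edgeR or DESeq2 in Schwann cell libraries, against 3.93% of 10016 genes, and 1 (Runx2) had an unadjusted p under 0.05. Runx2 had 23.5 to 99.9 CPM (median 33.3) at day 5 and 18.6 to 33.9 CPM (median 26.7) at day 14, a difference of -0.79 (SE 0.28, adjusted p = 0.127). Sox10 was at 0.65 (SE 0.47, adjusted p = 0.508). Scaling by totals moved the median of all genes from 0.05 to 0.23 here and from 0.03 to 0.23 after delayed repair, and the share of called genes that rose from 18.8% to 45.2% and from 41.3% to 72%.

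The same lists were read in the comparison of the days after delayed repair, where 8.09% of all genes passed. Of 14 tested myelin genes 9 rose and 0 fell, with a median of 2.82 against 0.03 for all genes. Mbp rose by 1.81 (SE 0.37) and Ncmap by 4.61 (SE 1.03). Of 10 tested repair Schwann cell genes 4 rose and 0 fell, among them the adhesion molecules Ncam1 at 3.51 (SE 0.90) and L1cam at 1.49 (SE 0.39), and Gdnf at 2.54 (SE 0.70). Of 14 immediate early genes 5 fell and 0 rose, with Klf6 at -1.10 (SE 0.21), Hspa1b at -1.66 (SE 0.41) and Zfp36 at -0.65 (SE 0.16). Of 10 AP-1 partners 1 fell, Junb at -0.57 (SE 0.16), of 11 co-regulators 1 rose, the YAP relative Wwtr1 at 2.42 (SE 0.65), of 6 negative regulators 1 rose, Hes1 at 2.65 (SE 0.76), and of 6 YAP and TEAD targets 1 fell, Lats2 at -0.54 (SE 0.16). Single calls in lists of this size lie near the share over all genes. After immediate repair, where 3.93% of all genes passed, 2 of 10 repair genes rose, while 1 of 11 myelin genes, 1 of 12 co-regulators and 2 of 14 immediate early genes fell.

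In macrophages no factor separated delayed from immediate repair. At day 5, 0 of 5 factors passed with edgeR or DESeq2 and 0 had an unadjusted p under 0.05, against 0.0357% of 8409 genes. At day 14, 0 of 6 passed with either tool and 0 had an unadjusted p under 0.05, against 0% of 8589 genes, where 189 genes were under an unadjusted 0.05. Between the days 0 of 5 factors passed with either tool, and 0 had an unadjusted p under 0.05, after immediate repair (against 11.3% of 8507 genes) and after delayed repair (against 6.41% of 8529 genes). Sox2, Olig1, Sox10 and Tead1 were under the count filter in all these tests, as was Runx2 except at day 14. Scaling by totals moved the share of called genes that rose between the days from 47% to 81.4% after immediate and from 51.2% to 64.3% after delayed repair. Jun, as 1 example, had 325 to 586 CPM (median 398) after delayed and 229 to 448 CPM (median 359) after immediate repair at day 5, and Egr2 had 47.3 to 148 CPM (median 104) and 78.2 to 148 CPM (median 90.2). Both factors overlapped between the groups.

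Because the Schwann cell libraries varied in their marker content, each factor was related to the scores of Schwann cell, dendritic cell and macrophage markers over the 31 libraries, after subtracting group means, with 30 relations permuted within groups (100000 permutations). With the Schwann cell score, Sox10 had Pearson's r = 0.84 (Spearman's rho = 0.81, both with an adjusted permutation p of 0.0003, resting on 1e-05, the smallest the permutations can give), and r was 0.80 without the 2 libraries farthest from the median score. Tead1 had r = 0.69 (rho = 0.67, adjusted permutation p = 0.0012 and 0.0046, 0.63 without the 2 farthest). Pou3f1 had r = 0.64 (rho = 0.64, adjusted permutation p = 0.005 and 0.0046, 0.59 without them), and Sox2 had r = 0.63 (rho = 0.65, adjusted permutation p = 0.00735 and 0.00495, 0.59 without them). Egr2 had r = 0.51 (rho = 0.52, adjusted permutation p = 0.0253 and 0.018, 0.50 without them). Jun, Runx2, Zeb2, Olig1 and Nab2 did not pass, with r from 0.03 to 0.34.

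With the macrophage score, Runx2 had r = -0.53 (rho = -0.58, adjusted permutation p = 0.0253 and 0.013, -0.47 without the 2 farthest) and Nab2 had r = 0.56 (rho = 0.54, adjusted permutation p = 0.0139 and 0.0176, 0.41 without them). With the dendritic cell score 0 of 10 relations passed, and the nearest over all 31 libraries was Runx2 at r = -0.51 (rho = -0.25, adjusted permutation p = 0.0501 and 0.369, -0.18 without the 2 farthest). In day 5 libraries alone 3 of the 30 relations passed by Pearson's r, those of Sox2, Sox10 and Tead1 with the Schwann cell score, and of these Sox10 alone passed by Spearman's rho too. In day 14 libraries alone 0 passed, although r with the Schwann cell score was 0.75 for Sox10, 0.75 for Egr2, 0.70 for Tead1, 0.66 for Pou3f1 and 0.66 for Zeb2, and r with the dendritic cell score was -0.69 for Tead1, -0.68 for Pou3f1, -0.67 for Sox10 and -0.63 for Egr2 (adjusted permutation p = 0.0564 for each).

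**Figure D5:**
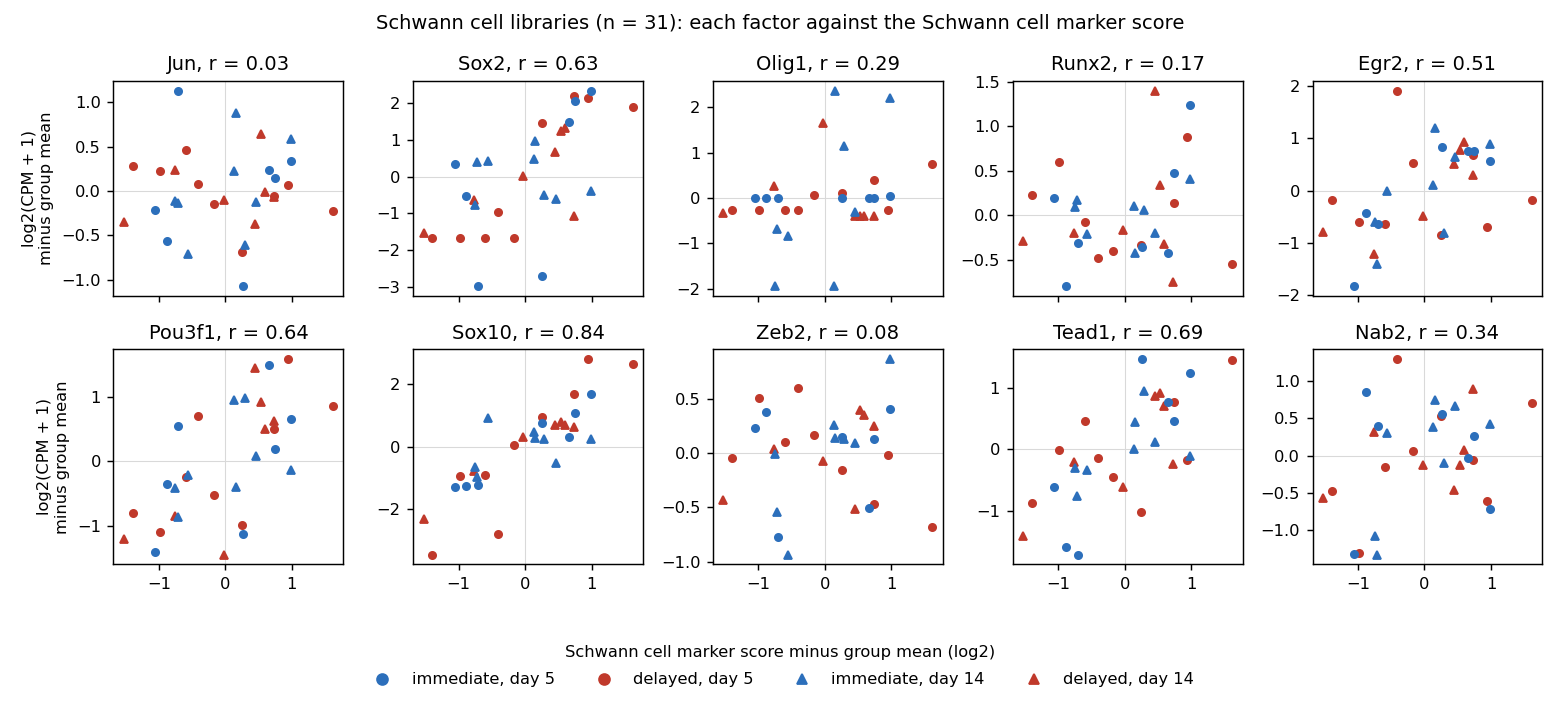
Level of each factor against the Schwann cell marker score in each of the 31 Schwann cell libraries, both as log2(CPM + 1) minus the group mean (circles day 5, triangles day 14, blue immediate, red delayed). Sox10 follows the score closely (r = 0.84) and Jun does not (r = 0.03).

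The genes most like each factor were named by the highest Pearson's r of group-centred log2 levels, as a description over libraries that share their preparation. Over the 16 stump libraries Sox10 and Sox2 had shared neighbours. Sox10 was closest to Ngfr (r = 0.97) and Zfp536 (0.97), and Sox2 to Zfp536 (0.96), Ttyh1 (0.95) and Ngfr (0.95). Runx2 was closest to Sema4f (0.96), Tead1 to the neuregulin receptor gene Erbb2 (0.94), Pou3f1 to Tmem179 (0.86), Olig1 to Mrgpre (0.86) and Jun to Bicd2 (0.79). Egr2 was closest to 1810011O10Rik (0.89) and to the immediate early genes Fos (0.87) and Fosb (0.84). Zeb2 was closest to Eif3c (0.89) and Nab2 to Kti12 (0.89). Over the 31 Schwann cell libraries Sox10 was closest to Mcam (0.91), Tead1 to Efhd1 (0.83), Sox2 to Plxnb1 (0.81), Pou3f1 to Nkd1 (0.80) and Egr2 to Plec (0.78). Nab2 was closest to Hbegf (0.75) and Fosb (0.75), Jun to Gsk3b (0.72), Runx2 to Impa1 (0.70), Olig1 to Npnt (0.64) and Zeb2 to Loxl4 (0.63).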

How the data were processed

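RNA of sorted macrophages and Schwann cells (1000 cells, SMART-Seq cDNA amplified by PCR, 4 and 1.5 ng into the library) and of rRNA-depleted distal stump (100 ng, directional kit) was sequenced from 32 animals. Per the labels the authors' notes name cutadapt 1.8, TopHat2 2.1.1 and Cufflinks 2.2.1 with mm10. The deposited values are estimated counts per gene, neither normalized nor filtered, and the counting program is not given in the sources used here. Of the values, 0.951% to 1.18% per table were not whole and were rounded. Libraries of 1 group came from separate animals, and 0 pairs of libraries held the same counts.

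Genes reaching 5 CPM of the unscaled library total in 6 or more of the libraries compared were tested with edgeR 4.0.16 in R 4.3.3 (quasi-likelihood test, TMM, no covariate), at a Benjamini-Hochberg adjusted p under 0.05 over all genes tested. The study used cuffdiff, which needs aligned reads. SE is the fitted log2 fold change over the square root of F. The members and lists were chosen with earlier results of these data known. Named were all 10 members, the 3 genes of each list with the smallest p in the comparisons discussed, the 3 genes most like each member, of which 1 to 3 are given, and the markers. Some genes that this rule names are not reported here. Scores are means of log2(CPM + 1). Alternatives were DESeq2 1.42.0, total scaling, filterByExpr, no filter, sex, a replicate or animal block, limma-voom (limma 3.58.1), a Schwann cell marker covariate, and each library left out. Macrophages and Schwann cells came from the same animals per the labels, and their deviations correlated above 0.1 in 11 of 16 and 11 of 15 pairs, but an animal block changed no member's call. The fits were tested on simulated data. Promoters are from RefSeq and positions from GENCODE.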

Additional observations from a re-analysis of the deposited data

Results flagged for a closer look

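A set was a member in a group of 7 to 9 libraries, and sets in which no library reached 1 CPM were left out. The gap of a library to its neighbour was taken as a share of the group's range, on the scale of log2(CPM + 1). Of 85 sets, 5 held a library whose gap exceeded Dixon's 95% critical value (0.568 for 7 and 0.526 for 8 libraries). Chance gives such a library in about 1 of 20 sets. In Schwann cells at day 14 after delayed repair, Olig1 was 3.15 CPM in replicate 7, while the next library had 0.595 CPM (gap ratio 0.672). In macrophages at day 5 after immediate repair, Egr2 was 148 CPM in replicate 7 and 104 CPM in the next library (gap ratio 0.552). In macrophages at day 14 after immediate repair, Pou3f1 was 2.52 CPM in replicate 1, below the next lowest at 7.36 CPM (gap ratio 0.574). Sox10 was 1.82 CPM in the macrophage library of delayed day 14 replicate 4 and 0.169 CPM in the next (gap ratio 0.85). It was 1.19 CPM in that of immediate day 5 replicate 6, where the other libraries had 0. With all others at 0 the gap ratio is 1 whatever the level, so the chance rate above does not apply to this set.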

How the results depend on the processing

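Of 306 member values under other settings 278 kept their direction and their side of the threshold, as did 402 of 430 with 1 library left out, and 95 of 105 counts or scores stayed close. In the stump the 7 calls went to 0 with the Schwann cell marker score as a covariate, where Sox2 was at 0.16, Olig1 at 2.56, Runx2 at 0.10, Sox10 at 0.70, Zeb2 at 0.11 and Tead1 at 0.24, against negative values without it, and the cause was not tested. The replicate numbers did not pair the stump libraries (r from -0.28 to 0.11, above 0.1 in 1 of 7 pairs, and 1 of 7 closest to its own number). With the replicate number as a replicate block, 5 members and 2184 genes passed in the stump (Zeb2 adjusted p = 0.157, Tead1 0.162), Egr2 was at 0.011, and 3 members and 241 genes passed between the days in Schwann cells after delayed repair. No other count of members changed under the block. Stump Nab2 was at 0.00676 with sex as a covariate and at 0.035 with limma-voom. With 1 library left out, 5 to 7 members passed in the stump, where Egr2 ran from -0.13 to 0.11 and Nab2 from -0.10 to 0.039. In Schwann cells after delayed repair the day comparison gave 1 to 3 members with 1 library left out, 4 with DESeq2, 4 with total scaling, 2 with sex as a covariate and 2 with limma-voom, and Pou3f1 passed in each. Other counts that moved were 1 for macrophages after delayed repair with filterByExpr (Runx2), 1 for Schwann cells after immediate repair with no filter (Olig1), and the 7 relations to marker scores, at 3 in day 5 and 0 in day 14 libraries. With a pseudocount of 0.25, 8 relations passed by Pearson's r and 6 by both measures, Runx2 with the dendritic cell score among the former (r = -0.54, adjusted permutation p = 0.0364). Between the cell types Pou3f1 at day 5 was at 0.0017 with DESeq2, 0.33 with total scaling and 0.012 with filterByExpr, and Nab2 at day 14 was at 0.29 with total scaling.

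Counts over all genes moved by over 1.5 times in these cases. In the stump 3205 became 16 with the marker covariate. For repair in macrophages at day 5, 3 became 17 with DESeq2, 8 with sex, 12 with the block and 1 to 3 with 1 library left out. In Schwann cell libraries at day 5, 0 became 14 with DESeq2, 1 with sex and 0 to 1 with 1 library left out, and at day 14, 3 with DESeq2. Between the days, 964 in macrophages after immediate repair became 1504 with total scaling, and 547 after delayed repair became 890 with DESeq2 and 1020 with limma-voom. In Schwann cells 394 after immediate repair became 948 with DESeq2, 642 with limma-voom and 244 with the block, and 806 after delayed repair became 1513 with DESeq2 and 241 with the block. With 1 library left out these ran from 210 to 657 and from 359 to 1175. The interaction in macrophages gave 9 with DESeq2, 4 with limma-voom and 0 with total scaling in place of 2, and that in Schwann cells 8 with DESeq2 in place of 0. Differences of Sox2, Sox10, Olig1 and Tead1 between macrophage groups, where most libraries held 0 counts, were not detectable at this depth.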

Other observations

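Some low levels stood out by group, singled out after their values were seen and given here without a test. Tead1 in macrophages was at 0 in 8 of 9 and 7 of 8 libraries at day 5 and in 6 of 7 at day 14 after delayed repair, but in only 2 of 8 at day 14 after immediate repair, where its median was 0.387 CPM. Olig1 in Schwann cells was at 0 in 5 of 9, 6 of 7 and 4 of 7 libraries of the other groups and in 2 of 8 at day 14 after immediate repair, with a median of 1.76 CPM and up to 18.8 CPM there.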
